A study of Mus musculus with 18 samples.

Results

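The Ifit family encodes interferon-induced proteins with tetratricopeptide repeats that bind RNA. Its members Ifit1, Ifit2, Ifit3 and Ifit3b were followed here in mouse bone marrow-derived dendritic cells that carried or lacked Ubc9, the enzyme that attaches SUMO to target proteins. The members were chosen by gene symbol, and the family itself was chosen with earlier results of these data known, among them its high signal in knockout cells. Each member had 1 probe set annotated with its symbol alone, so no measured value was needed to choose between probe sets. The 4 members stand among 19938 genes with such a probe set.

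Marrow cells of 2 genotypes, labelled UBC9WT (wild type) and UBC9KO (knockout), were grown for 10 days in medium with 10% serum and 20 ng/ml GM-CSF, a growth factor that drives dendritic cell development. Cultures of both genotypes received 100 nM 4-hydroxytamoxifen on day 6, so the wild-type cells were exposed to it as well. The labels name neither the recombinase nor the promoter that drives it. Cells of each genotype were left unstimulated or given 10 ng/ml lipopolysaccharide (LPS), a bacterial product sensed by Toll-like receptor 4, for 1 h or 6 h. Each of the 6 groups had 3 biological replicates, each on its own Affymetrix Mouse Gene ST array, 18 arrays in all. Levels are given as log2 signal, so a difference of 1 is a doubling of signal.

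Interferon beta binds its receptor and activates ISGF3, a complex that holds STAT2 and IRF9 and binds the interferon-stimulated response element (ISRE) in the promoters of antiviral genes. Ifit genes are among the genes that respond most strongly to it, and IRF3 and IRF7 can also act on such elements directly. Ifit1 binds the start of RNAs whose cap lacks ribose methylation and keeps them from being translated, Ifit2 binds RNA and forms dimers, and Ifit3 and Ifit3b are close copies of each other. LPS reaches this pathway through Toll-like receptor 4 and its adaptor TRIF, which lead to interferon beta.

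The 4 members lie in 1 cluster on chromosome 19 (GRCm38.p6). Ifit2 occupies 34550550 to 34576534, Ifit3 34583119 to 34588982, Ifit3b 34607530 to 34613403 and Ifit1 34640889 to 34650009. With its relatives Ifit1bl1 and Ifit1bl2 the cluster spans 112.4 kb. The annotated span of Ifit1bl2, a gene on the minus strand, is separated by 61 bp from the start of Ifit1. The promoter stretches that hold ISRE matches are given first because interferon signalling acts through such elements. They come from RefSeq windows of 250 bases before to 50 bases after an annotated transcript start, and all are on the plus strand. Capitals mark matches to the ISRE core, searched as TTTC, any 2 bases and TTTC.

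Ifit1, chr19:34640779-34640819: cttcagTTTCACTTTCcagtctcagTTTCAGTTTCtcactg
Ifit3, chr19:34583367-34583422: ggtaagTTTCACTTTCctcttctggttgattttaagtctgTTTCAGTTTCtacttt
Ifit3b, chr19:34607763-34607818: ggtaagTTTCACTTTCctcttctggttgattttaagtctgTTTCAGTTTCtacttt

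Each of these 3 promoters held 2 matches, the first TTTCACTTTC and the second TTTCAGTTTC. The first match began 104 bases before the start of Ifit1, 156 before that of Ifit3 and 188 before that of Ifit3b. The printed stretches of Ifit3 and Ifit3b are the same letters. Over 218 aligned bases of their upstream windows, 216 were identical (99.1%), with 6 gap positions. The relative Ifit1bl2 had a window that holds the same 2 matches as Ifit1, at 34640785 to 34640794 and 34640804 to 34640813, read from the opposite strand. Ifit1bl1 had 1 match in each of its 2 windows. Neither window of Ifit2 held a match, and 1 of them held a match to the GAS motif TTCNNNGAA, 241 to 233 bases upstream. These 2 windows were set on the transcript starts 34550694 and 34551088, inside the annotated gene, which begins at 34550550. An element outside the windows, or one that departs from the exact core, would not be found, so Ifit2 is not shown to lack an ISRE. No window of the cluster matched the NF-kB motif, searched as GGG, any 2 bases and TTTCC. Of 32851 windows of this length over all genes, searched on both strands, 3.44% held the ISRE core at least once, 0.225% held it at least 2 times, 8.3% held TTCNNNGAA and 1.63% held the NF-kB motif. Matches of different motifs could overlap.

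**Figure D1:**
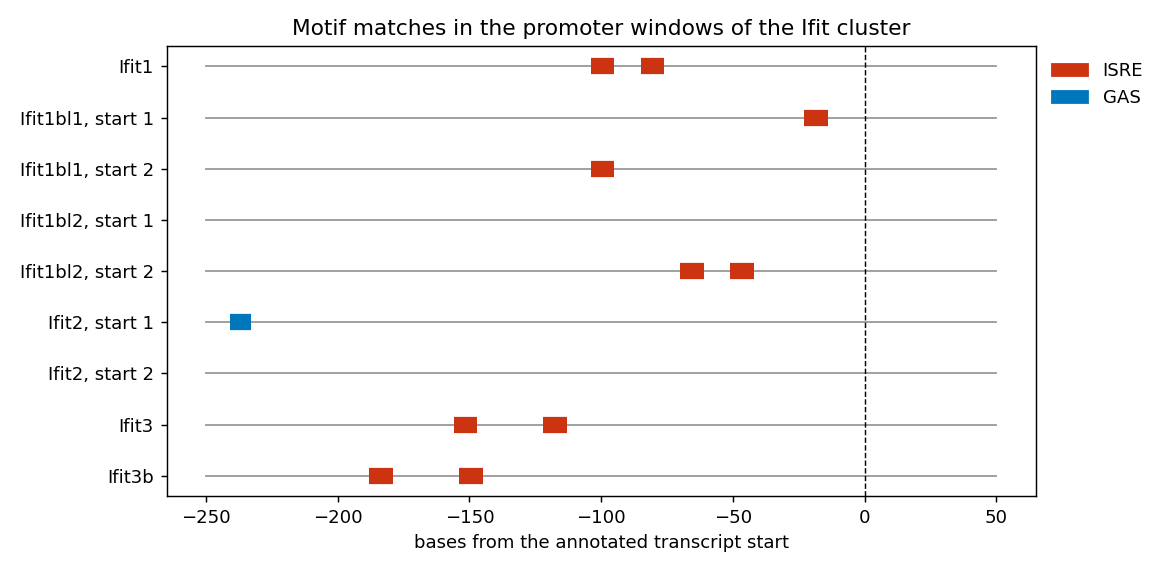
Positions of ISRE matches (red) and the GAS match (blue) in the promoter windows of the 6 genes of the Ifit cluster, in bases from each annotated transcript start (dashed line). The windows of Ifit1, Ifit3 and Ifit3b and 1 of 2 windows of Ifit1bl2 each hold 2 ISRE matches, and neither window of Ifit2 holds any. Only the exact core within these windows was searched.

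Without LPS, the knockout arrays were already high in all 4 members. Ifit1 read 9.75, 10.48 and 11.13 on the unstimulated knockout arrays 1, 2 and 3, against 4.64, 4.47 and 4.73 on the wild-type arrays. Ifit2 read 9.56, 10.27 and 11.58 in knockout cells and 4.95, 4.79 and 4.82 in wild-type cells. The lowest knockout array lay far above the highest wild-type array for both genes. Ifit3 read 10.58, 11.10 and 11.73 in knockout cells and 4.73, 3.74 and 4.84 in wild-type cells. Ifit3b read 8.36, 9.03 and 10.34 in knockout cells and 3.16, 2.55 and 3.26 in wild-type cells. The genotypes did not overlap for any member. In the knockout array 1 was the lowest and array 3 the highest for all 4, as for 22.9% of all genes.

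Unstimulated knockout exceeded wild type by 6.70 ± 0.43 (SE, n = 3 against 3) for Ifit3, a 104-fold difference (limma adjusted p = 1.5e-07). The difference was 6.25 ± 0.58 for Ifit3b, 5.84 ± 0.45 for Ifit1 and 5.61 ± 0.52 for Ifit2, or 76.3-fold, 57.3-fold and 49.0-fold. Their adjusted p values were 1.1e-05, 1.5e-06 and 1.1e-05. Ranked by size among all 19938 genes, Ifit3, Ifit3b, Ifit1 and Ifit2 held places 1, 2, 3 and 4. All 4 members were called higher at an adjusted p under 0.05, against 1.8% of all genes called higher and 8.02% whose groups did not overlap with the knockout above. As the family was chosen with this result known, the count describes the members and is no independent support. Fewer cells that express a gene and less RNA per cell cannot be told apart in such bulk arrays.

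**Figure D2:**
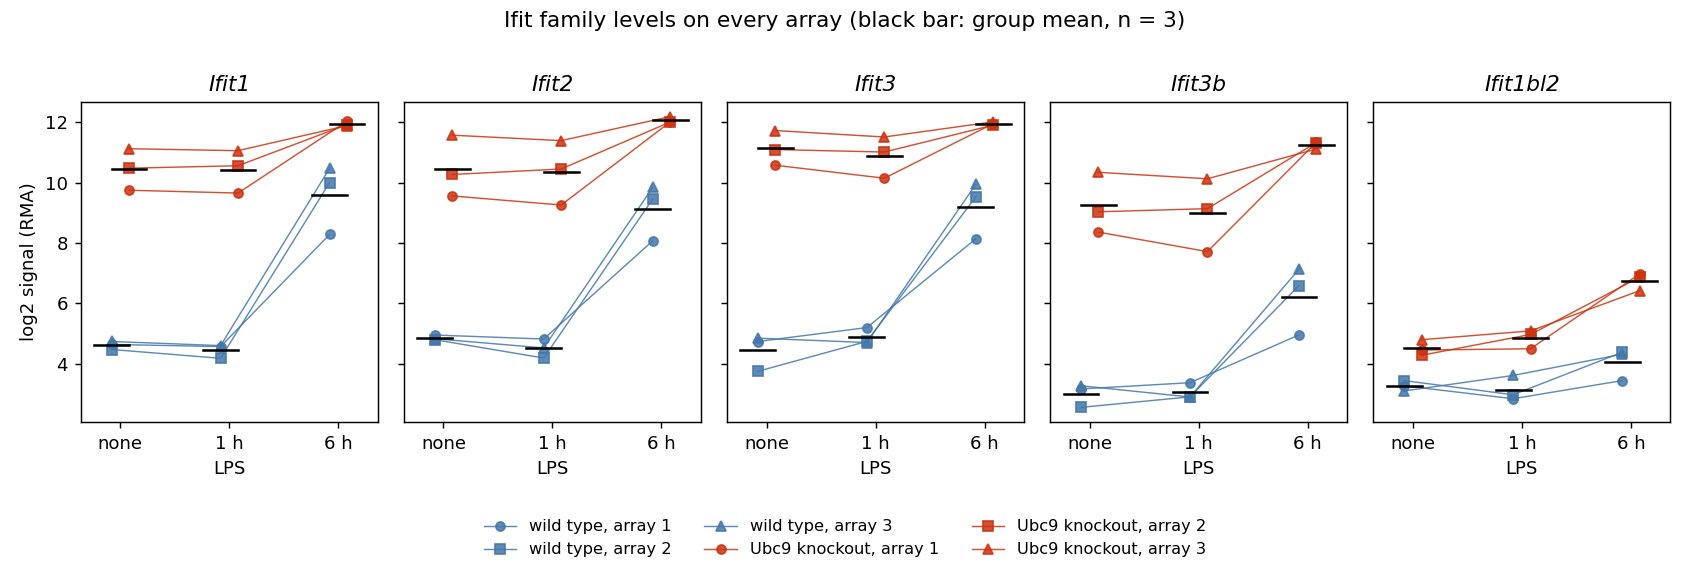
Log2 signal of the 4 members and of Ifit1bl2 on each of the 18 arrays, by LPS time (none, 1 h, 6 h), with wild type in blue and Ubc9 knockout in red; symbols mark the replicate number, lines join equal numbers within a genotype, and black bars are group means of 3 arrays. Knockout arrays lie above wild-type arrays in every condition for the 4 members, and the 3 knockout arrays of each member come together at 6 h.

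After 1 h of LPS the values stayed near their starting points. Ifit1 was at 9.65, 10.56 and 11.06 in knockout cells and at 4.57, 4.18 and 4.60 in wild-type cells. Ifit2 was at 9.26, 10.45 and 11.39 in knockout cells and at 4.82, 4.18 and 4.52 in wild-type cells. Each knockout replicate kept its place, with array 1 lowest and array 3 highest, an order that 21.3% of all genes had there. Ifit3 was at 10.15, 11.02 and 11.52 in knockout cells and at 5.20, 4.74 and 4.70 in wild-type cells. Ifit3b was at 7.71, 9.14 and 10.13 in knockout cells and at 3.37, 2.90 and 2.89 in wild-type cells. The 1 h groups overlapped the unstimulated groups of the same genotype for every member.

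In wild-type cells, the change from unstimulated to 1 h was -0.17 for Ifit1, -0.35 for Ifit2, 0.44 for Ifit3 and 0.06 for Ifit3b, with SE of 0.43 to 0.58. No member was called, and 0.301% of all genes were called in either direction. In knockout cells the changes were -0.03, -0.10, -0.24 and -0.25, again with no member called, beside 0.667% of all genes. At an unadjusted p under 0.05 the count of members was 0 in both genotypes in limma, against 5.75% and 8.56% of all genes. The genotype difference at 1 h was 6.02 for Ifit3, 5.98 for Ifit1, 5.94 for Ifit3b and 5.86 for Ifit2, with adjusted p of 1e-06 to 1.7e-05. These were places 1 to 4 among all genes again, and all 4 members were called higher, beside 1.5% of all genes. Their genotypes did not overlap at 1 h, which held with the knockout above for 7.58% of all genes. The test of whether the 1 h response itself differed between genotypes gave 0 called genes of any kind, with 592 genes (2.97%) and 0 members at an unadjusted p under 0.05.

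At 6 h the wild-type cells rose. Ifit1 reached 8.28, 10.00 and 10.47 on wild-type arrays 1, 2 and 3, and 12.04, 11.92 and 11.89 on the knockout arrays. Ifit2 reached 8.07, 9.46 and 9.84 in wild-type cells and 12.01, 12.01 and 12.19 in knockout cells. Wild-type array 1 was the lowest of its group for both. Ifit3 reached 8.14, 9.53 and 9.94 in wild-type cells and 11.96, 11.91 and 12.02 in knockout cells. Ifit3b reached 4.95, 6.59 and 7.13 in wild-type cells and 11.34, 11.33 and 11.12 in knockout cells. For all 4 members, wild-type array 1 was again the lowest, and every 6 h array lay above every unstimulated array of its genotype, as held for 11.1% of all genes in wild-type and 17.3% in knockout cells.

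The wild-type response from unstimulated to 6 h was 4.97 ± 0.45 for Ifit1 (31.4-fold, adjusted p = 3.8e-06), 4.77 ± 0.43 for Ifit3 (27.2-fold), 4.27 ± 0.52 for Ifit2 (19.3-fold) and 3.23 ± 0.58 for Ifit3b (9.39-fold, adjusted p = 0.0019). All 4 members were called higher, beside 4.23% of all genes. By size they held places 3, 5, 9 and 22. From 1 h to 6 h the wild-type rise was 5.14 for Ifit1, 4.62 for Ifit2, 4.33 for Ifit3 and 3.17 for Ifit3b, places 1, 2, 3 and 11. All 4 were called higher in that interval, where 3.04% of all genes were.

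In knockout cells the rise from unstimulated to 6 h was smaller, 2.02 ± 0.58 for Ifit3b (adjusted p = 0.014), 1.602 ± 0.52 for Ifit2 (0.026), 1.499 ± 0.45 for Ifit1 (0.017) and 0.83 ± 0.43 for Ifit3 (0.15). So 3 of 4 members were called higher, beside 12% of all genes, and Ifit3 was not called although its groups did not overlap. Without the unstimulated knockout replicate 1, which was the lowest, none of the 4 was called, with adjusted p of 0.078 to 0.14 for the 3. The call of Ifit2 was also lost without unstimulated knockout replicate 2 or 6 h knockout replicate 2 or 3 (0.053 to 0.079). From 1 h to 6 h the rise was 2.27 for Ifit3b, 1.70 for Ifit2, 1.52 for Ifit1 and 1.07 for Ifit3, and again 3 were called higher, beside 12.2% of all genes. Ifit3 had an adjusted p of 0.069 there, and of 0.030 when the replicate number within a genotype was kept as a block. It was also called without 1 h knockout replicate 3 (0.033) or 6 h wild-type replicate 1 (0.031), and when only the groups compared were fitted (0.046). Without the 1 h knockout replicate 1, none of the 4 was called, with adjusted p of 0.052 to 0.12 for the 3. Ifit2 also lost its call without 6 h knockout replicate 3 (0.068).

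The difference of the 6 h responses, knockout minus wild type, was -3.94 ± 0.60 for Ifit3 (adjusted p = 8e-04), -3.47 ± 0.64 for Ifit1 (0.0027), -2.67 ± 0.73 for Ifit2 (0.030) and -1.21 ± 0.82 for Ifit3b (0.38). Ifit3 had the most negative difference of all 19938 genes, Ifit1 the third and Ifit2 the fourth most negative. So 3 of 4 members were called lower, beside 7.18% of all genes. For Ifit3b the 95% interval ran from -2.95 to 0.53. The call of Ifit2 was lost without any 1 of 8 replicates: unstimulated knockout 2 or 3, 6 h knockout 2 or 3, unstimulated wild type 1 or 2, and 6 h wild type 2 or 3, with adjusted p of 0.052 to 0.077. This difference is taken from log2 levels, and the knockout began from a high level.

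Knockout remained above wild type at 6 h, by 5.04 ± 0.58 for Ifit3b (32.9-fold, adjusted p = 9.5e-06), 2.95 ± 0.52 for Ifit2 (7.71-fold), 2.76 ± 0.43 for Ifit3 (6.76-fold) and 2.37 ± 0.45 for Ifit1 (5.15-fold, adjusted p = 0.00084). All 4 members were called higher, beside 10.6% of all genes, and in size they held places 9, 65, 81 and 117. The genotypes did not overlap for any member, as held with the knockout above for 19.6% of all genes. Of all 5863 genes called in this comparison, 36.1% were higher. With each array set to its 75th percentile, the median of all genes was 0.28 rather than 0.04, and 79.8% of called genes were higher, and all 4 members were still called higher. That percentile, over the 19938 genes, lay between 7.426 and 7.625 on the 6 h knockout arrays and between 7.722 and 7.853 on the other 15. The same scaling changed the share higher among called genes from 37.4% to 81% for the 6 h response in knockout cells, and from 29.5% to 82.8% for the difference of the 6 h responses. There too it left the 3 called members of each comparison called in the same direction, and Ifit3 was then called in the knockout response (1.10, adjusted p = 0.042).

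**Figure D3:**
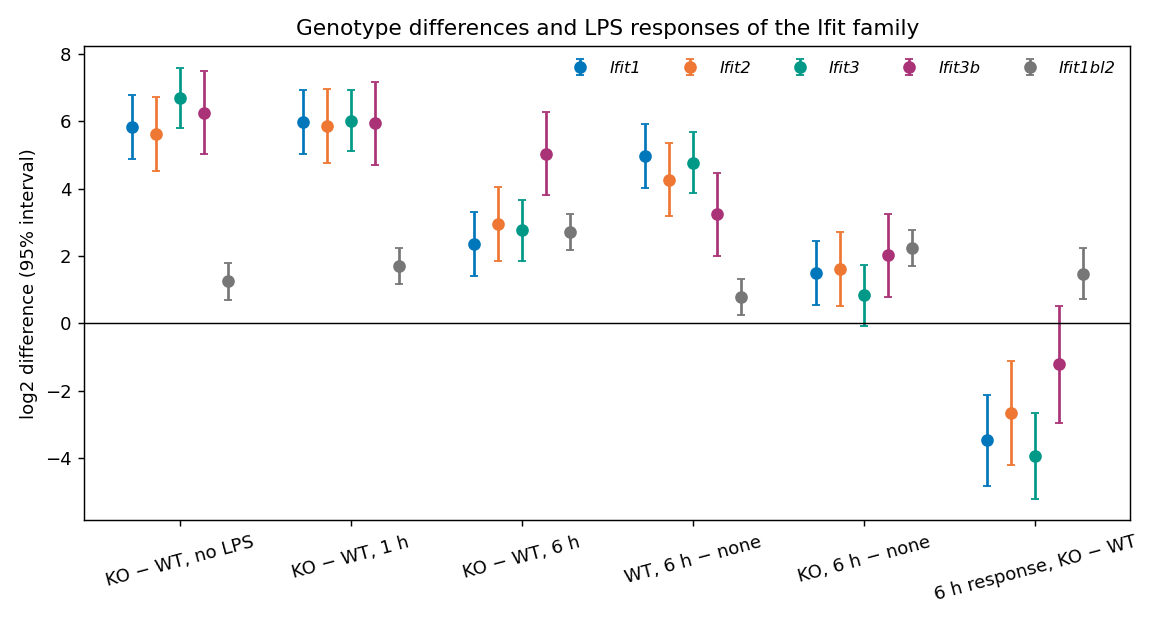
Log2 differences of the 4 members and Ifit1bl2 with 95% intervals from the fit over all genes: knockout minus wild type without LPS, at 1 h and at 6 h, the 6 h responses of wild-type and knockout cells, and the difference of those responses. The members lie near 6 in the first 2 comparisons, Ifit3b stays at 5.04 at 6 h while the other 3 fall to between 2.37 and 2.95, and only the interval of Ifit3b crosses 0 among the members in the last comparison.

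By group mean, each member followed nearly 1 order of conditions. Ifit1 averaged 4.61 ± 0.14 (SD, n = 3) in unstimulated and 4.45 ± 0.23 in 1 h wild-type cells, 9.59 ± 1.15 in 6 h wild-type cells, 10.45 ± 0.69 and 10.43 ± 0.71 in unstimulated and 1 h knockout cells, and 11.95 ± 0.08 in 6 h knockout cells. Unstimulated and 1 h levels overlapped in either genotype for every member. The 6 h wild-type group overlapped the unstimulated knockout group for Ifit1 and Ifit2 and lay wholly below it for Ifit3 and Ifit3b, as it did for 13.8% of all genes.

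Set against wild-type cells at 6 h of LPS, unstimulated knockout cells were higher by 3.02 ± 0.58 for Ifit3b (adjusted p = 0.0026) and by 1.93 ± 0.43 for Ifit3 (0.0074). For Ifit2 the difference was 1.35 ± 0.52 (0.14) and for Ifit1 0.87 ± 0.45 (0.32), whose 95% interval ran from -0.09 to 1.82. So 2 of 4 members were called higher, beside 5% of all genes. Ifit3 had an adjusted p of 0.056 when only these 2 groups were fitted. Ifit2 was called (0.042) when equal replicate numbers were blocked across genotypes, numbers that were not taken to pair.

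The spread between arrays of a group was wide in the members in most groups, and narrow in 6 h knockout cells. The median SD over the 4 members was 0.848 in unstimulated and 0.891 in 1 h knockout cells, 0.0892 in 6 h knockout cells and 1.04 in 6 h wild-type cells. The median SD over all genes was 0.108 to 0.161 in the 6 groups, with 0.161 in 6 h knockout cells, above that of the members there. All 4 members had a smaller SD in 6 h than in unstimulated knockout cells, as did 43.5% of all genes. Among 32 other measured antiviral interferon-stimulated genes, 31 did. In 31 of them the unstimulated knockout arrays stood in the same order as in the members, against 22.9% of all genes. The 6 h wild-type arrays also stood in that order in all 4 members and in 29 of the 32, against 17.8% of all genes. The levels of 6 h knockout cells lay near the top of the scale: 2.23% of genes averaged above 11 there, and the highest value in the table was 13.71. Whether the scale limits the values there was not tested.

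Wild-type levels without LPS or at 1 h lay at the low end of the scale. A list of 24 measured germ cell and other tissue-restricted genes averaged 4.13 to 4.32 per array in 6 h knockout cells and 3.90 to 4.09 in the other groups. Over all arrays, 95% of their values were under 5.70. Of these genes, 4 were called higher in knockout than wild-type cells at 6 h, and 6 in the 6 h knockout response, so the background was not level across groups. All unstimulated and 1 h wild-type values of the 4 members were under that level, so the fold differences against them depend on the background of the arrays.

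Ifit3 and Ifit3b, the copies of close sequence, were also compared within each array. There Ifit3 minus Ifit3b averaged 1.45 ± 0.22 (SD, n = 3) in unstimulated wild-type cells and 2.98 ± 0.19 in 6 h wild-type cells. In knockout cells it averaged 1.89 ± 0.44 without LPS and 0.70 ± 0.17 at 6 h. Both genes read under 5.70 in unstimulated wild-type cells, and Ifit3 lay near the top of the scale in 6 h knockout cells, so no change of this difference with LPS is read from these values. How far transcripts of each copy bind the other's probes was not tested.

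The relative Ifit1bl2 was also higher in knockout cells but kept low. All its values other than those of 6 h knockout cells were under 5.70, so the differences that rest on them depend on the background of the arrays. Its arrays read 4.45, 4.28 and 4.79 in unstimulated knockout cells against 3.26, 3.44 and 3.09 in wild-type cells, and 6.97, 6.86 and 6.42 against 3.44, 4.38 and 4.31 at 6 h. Knockout exceeded wild type by 1.24 ± 0.25 without LPS (adjusted p = 0.013), by 1.71 at 1 h (0.001) and by 2.71 at 6 h (1.2e-06). The unstimulated difference was 1.10 without unstimulated knockout replicate 3 (0.075) and 1.16 without unstimulated wild-type replicate 3 (0.054). Its 6 h response was 2.25 ± 0.25 in knockout cells and 0.78 ± 0.25 in wild-type cells, where the adjusted p was 0.078 and, with the replicate number as a block, 0.033. It was 0.0094 without 6 h wild-type replicate 1. The difference of these responses was 1.47 ± 0.36 (0.016), and 3% of all genes were called higher there. With 9 of the 12 values behind it under 5.70, no comparison with the members is drawn from it. It was 1.17 (0.067) without wild-type replicate 1 in all conditions. Ifit1bl1 had no probe set that carried its symbol alone, so its level was not analysed here.

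Of the 8 annotated genes next to the cluster, 4 were measured. These were Fas, a death receptor, Ch25h, an enzyme that makes an antiviral oxysterol, Lipa, a lysosomal lipase, and Slc16a12, a transporter. Knockout minus wild type without LPS was 0.47 for Fas, 0.68 for Ch25h, -0.06 for Lipa and 0.07 for Slc16a12. None was called there or at 1 h. In both comparisons the unadjusted limma p was under 0.05 for Fas (0.037, 0.041) and Ch25h (0.011, 0.0031) alone. At 6 h Ch25h was called higher in knockout cells by 1.44 ± 0.24 (adjusted p = 0.00024 in limma), Slc16a12 higher by 0.32 and Lipa lower, at -0.23. Of all genes, 10.6% were called higher there and 18.8% lower. The median of the 10185 genes kept by a filter on dim probe sets was -0.215 there, close to the value of Lipa. All values of Slc16a12 were under 5.70, and 4 of the 24 tissue-restricted genes were called higher there too, so its difference depends on the background of the arrays.

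**Figure D4:**
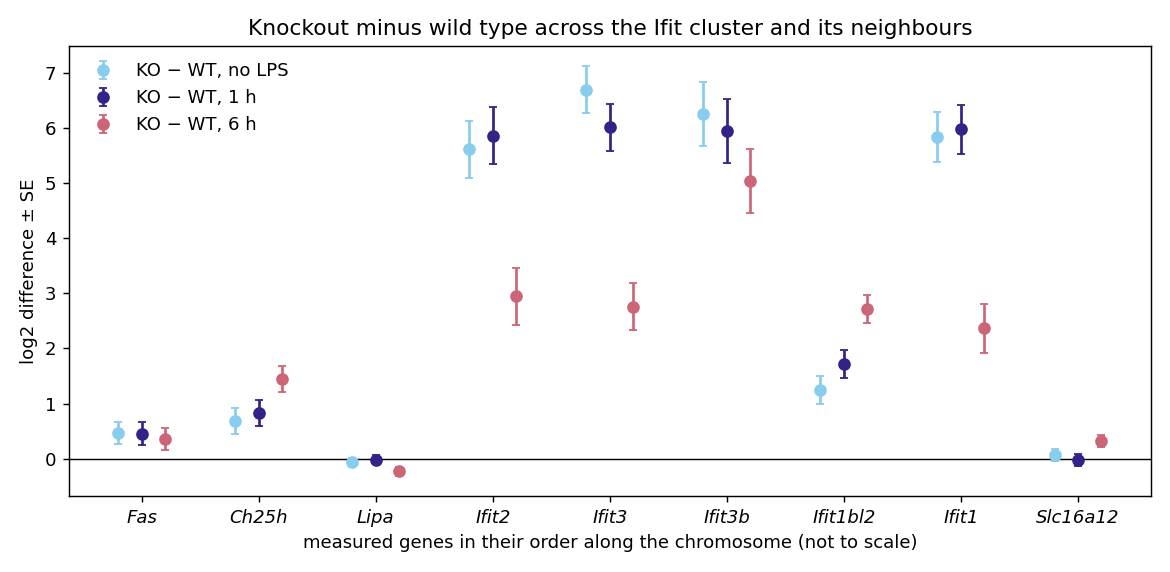
Knockout minus wild type (log2 difference ± SE, n = 3 against 3) for the measured genes of the Ifit cluster and their neighbours, in chromosome order and not to scale, without LPS, at 1 h and at 6 h. The 4 members lie between 5.61 and 6.70 without LPS, while the neighbours lie between -0.06 and 0.68.

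The genes upstream and downstream of the interferon receptor were set beside the members, from lists drawn up with earlier results known. Ifnb1, the interferon beta gene, read 4.35, 5.48 and 6.56 in unstimulated knockout cells and 3.80, 3.80 and 3.36 in wild-type cells. At 1 h it read 7.74, 8.77 and 8.97 in knockout cells and 4.03, 4.27 and 4.20 in wild-type cells. At 6 h it read 12.04, 11.98 and 11.48 in knockout cells and 4.26, 4.56 and 4.63 in wild-type cells. Ifnb1 thus rose at 1 h in the knockout (3.03 ± 0.40, adjusted p = 5e-04), where no member rose. In wild-type cells its 6 h response was 0.83 ± 0.40 (0.28). All its wild-type values were under 5.70, so a response within the background of the arrays was not detectable there.

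Irf7, a transcription factor that is itself interferon-induced, read 9.89, 10.73 and 11.51 in unstimulated knockout cells against 5.84, 5.25 and 5.76 in wild-type cells. The difference was 5.09 ± 0.39 (adjusted p = 1.5e-06), and array 1 was again the lowest and array 3 the highest knockout array. Irf3, which LPS signalling activates without new synthesis, differed by -0.23 and was not called. Of 16 measured genes of interferon production, 5 were called higher in unstimulated knockout cells: Irf7, Ifnb1 (1.81, 0.021), the LPS co-receptor Cd14 (1.28), the kinase gene Ikbke (0.94) and the receptor gene Tlr4 (0.46). This count was 1 without unstimulated knockout replicate 2, 2 without knockout replicate 3, 3 without wild-type replicate 1 or 2, and 2 without wild-type replicate 3 of that condition. The median of the 16 was 0.12, that of all genes 0.00. The difference of Ifnb1 depends on the background of the arrays, as said above.

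Of 6 measured genes of the interferon receptor and ISGF3, Stat2 (1.96 ± 0.33, adjusted p = 0.003) and Irf9 (1.38 ± 0.14, 3.6e-05) were called higher in unstimulated knockout cells. The receptor genes Ifnar1 (0.33) and Ifnar2 (0.05) and the kinase genes Jak1 (0.09) and Tyk2 (0.07) were not called. At 6 h the knockout was higher for Stat2 (2.01), Irf9 (0.77) and Tyk2 (0.70). Of 11 genes that restrain interferon signalling, 2 were called higher without LPS: Usp18 (3.92 ± 0.44, 7.6e-05), which blocks the receptor, and the SUMO ligase gene Pias1 (0.43). The count was 1 without each of unstimulated knockout replicates 1, 2 and 3 and wild-type replicates 1 and 2 in turn.

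Most of the 32 other antiviral genes were also higher in knockout cells. Without LPS 24 were called higher, 8 were not called and none was lower, with a median of 2.58 against 0.00 over all genes. The smallest adjusted p values were those of Rtp4 (5.34 ± 0.33), a chaperone gene, Oas3 (3.94 ± 0.31) and Oasl2 (4.41 ± 0.40), of the oligoadenylate synthetase family, and Ifitm3 (2.99 ± 0.26), which blocks virus entry. All 32 lay below the 5.61 of Ifit2. At 1 h 23 and at 6 h 30 were called higher, with medians of 2.49 and 2.26. From unstimulated to 6 h, 24 rose in wild-type cells (median 1.46) and 22 in knockout cells (median 1.27). The wild-type count was 15 without 6 h wild-type replicate 2 and 14 without replicate 3.

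For the difference of the 6 h responses these 32 genes ran from -3.74 to 3.38, with a median of -0.06 (all genes 0.01). The 4 members ranged from -3.94 to -1.21, and only Ifit3 lay outside the range of the 32. Rtp4 (-3.74 ± 0.47, adjusted p = 2.1e-04) was the 1 gene of the 32 called lower, and held the place between Ifit3 and Ifit1. Samhd1 (0.79) and Apobec3 (1.20), named after their values were seen, were called higher. With the replicate number within a genotype as a block 4 were called lower. The count of genes called lower was 2 without unstimulated knockout replicate 1, without 1 h knockout replicate 1 or 3, or without 6 h wild-type replicate 1. That of genes called higher was between 1 and 5 over the settings tried.

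**Figure D5:**
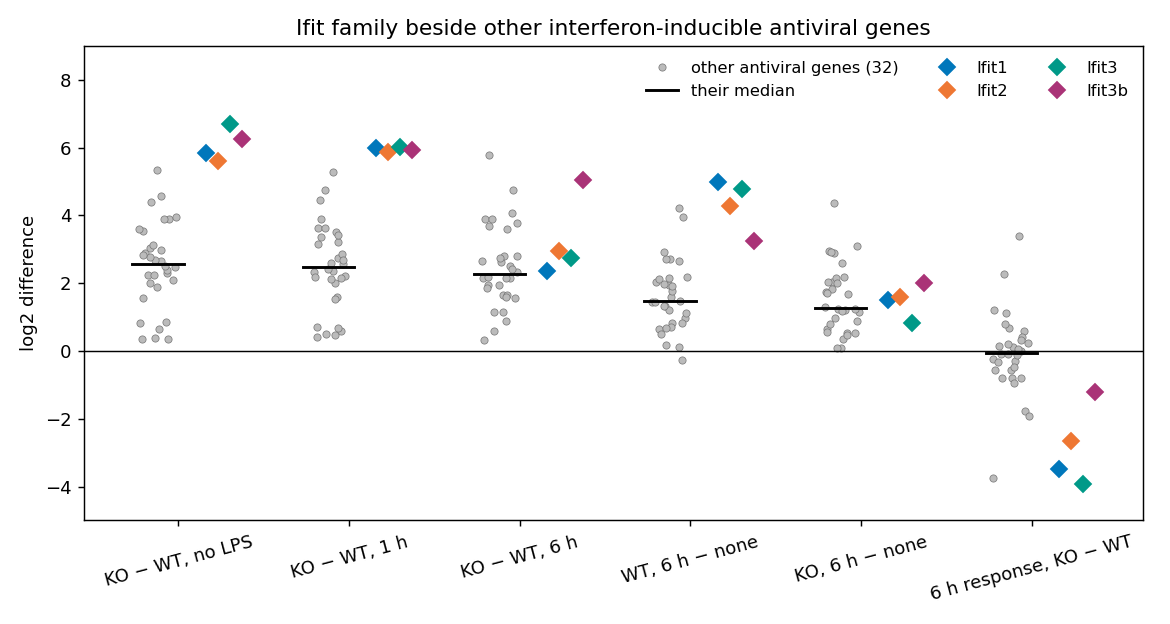
Log2 differences of the 4 members (coloured diamonds) beside 32 other antiviral genes (grey points, black bar at their median) in 6 comparisons. The members lie above every other antiviral gene in the first 2 comparisons. In the last, Ifit1, Ifit2 and Ifit3 lie well below the median of -0.06, while the other genes range from -3.74 to 3.38.

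Over the 18 arrays the mean of the 4 members, each centred on its own mean, was most like Oasl2 (Pearson r = 0.995), Xaf1 (0.994), Slfn5 (0.992), Rsad2 (0.99) and Usp18 (0.989). Ifit1 alone was most like Rsad2 and Irf9 (both 0.989), and Ifit2 was most like Xaf1 and Rsad2 (both 0.994). Ifit3 was most like Rtp4 (0.993), and Ifit3b was most like Zbp1 (0.994) and Irf7 (0.993). These values describe the order of genes only, because the 18 points fall into 6 groups and share arrays. Between members r ran from 0.963 (Ifit1 with Ifit3b) to 0.995 (Ifit1 with Ifit2). After group means were removed it ran from 0.883 to 0.97, so replicates of a group rose and fell together across the family.

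The share of genes called higher in the knockout was larger where promoter windows held ISRE matches. Of 14958 measured genes whose windows held no match, 1.52% were called higher in unstimulated knockout cells. Of 605 genes with at least 1 match it was 7.44%, and of 41 with at least 2 it was 36.6% (15 genes, among them Ifit1, Ifit3, Ifit3b and Ifit1bl2). For genes called higher from unstimulated to 6 h in the wild type, these shares were 4.19%, 8.1% and 31.7%. No test was made of these shares, and the members stand in them. So does Ifit1bl2, whose matches are the same bases as those of Ifit1.

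The steps that Ifit proteins act on were looked at through 2 further lists. Of 10 measured genes that build, read or remove the mRNA cap, the decapping gene Dcp2 (0.69) and the exonuclease gene Xrn1 (0.595) were called higher in unstimulated knockout cells. That count was 0 under each of the 3 other scalings and without unstimulated knockout replicate 2 or 3 or wild-type replicate 1 or 2. It was 1 without any 1 of 8 other replicates, namely unstimulated knockout 1, 1 h knockout 2, 6 h knockout 2, unstimulated wild type 3, 1 h wild type 1, 2 or 3, and 6 h wild type 2. Of 11 measured subunit genes of eIF3, the initiation factor that Ifit proteins of several mammals bind, 0 were called without LPS in limma, with Eif3e (0.29) the 1 subunit at an unadjusted p under 0.05. At 6 h 6 were called lower in knockout cells, beside 18.8% of all genes, with a median of -0.38. The count was 2 when each array was set to its 75th percentile. Of the 10185 genes kept by the filter on dim probe sets, 53.2% were called in that comparison, with a median of -0.215. Among those called, 26.8% were higher, so lower values at 6 h were common among brighter genes.

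Markers of cell identity were compared between the genotypes in each condition. Without LPS Itgax, the dendritic cell integrin gene, read 10.57 to 10.77 in knockout and 11.04 to 11.10 in wild-type cells and was lower in the knockout, at -0.39 (adjusted p = 0.014). It was the 1 of 10 dendritic markers called, and their summed log2 level was 83.6 to 84.4 against 84.5 to 89.9. Of 9 macrophage markers, Adgre1 (0.71) and Fcgr1 (3.09) were called higher, with sums of 77.3 to 79.7 and 76.8 to 77.4. Marco, a scavenger receptor gene, was at -2.14 ± 0.60 and was not called (adjusted p = 0.08). Of 6 plasmacytoid markers only Bst2, an interferon-induced gene, was called. The mean of the other 5 was 5.02 to 5.34 against 5.0 to 5.08, and the defining marker Siglech lay at 4.42 to 4.69 and 4.54 to 4.70. Of 36 measured neutrophil, B cell, T and NK cell, mast cell, erythroid and stromal markers, 0 were called in limma and 3 had an unadjusted p under 0.05. At 1 h Fcgr1 (3.02) was called higher and Marco (-2.64) lower among the macrophage markers, Bst2 (2.22) was called among the plasmacytoid markers, and 0 of 10 dendritic markers were called in limma, with 4 at an unadjusted p under 0.05. At 6 h, where 29.4% of all genes were called, 1 dendritic marker was called higher (Cd86, 1.72) and 4 lower. There 3 macrophage markers were called higher, Fcgr1 (4.68) by the most, and 2 lower, Marco (-2.76) and Csf1r (-0.60). Of the plasmacytoid markers Tcf4 (2.43), Bst2 (1.94) and Pacsin1 (0.59) were called higher at 6 h. The part of dendritic, macrophage and plasmacytoid markers in the members' differences was not tested. The genotype of each array rests on the labels.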

How the data were processed

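The authors deposited 1 table of log2 signal for 18 arrays, made with RMA per the submitters' processing notes, with no version or log base given; the range of 1.5 to 13.71 fits a log2 scale, which was assumed. Of 35556 probe sets, 21789 carried 1 gene symbol in the platform annotation, 1621 several and 12146 none; the probe set with the highest mean stood for each of 19938 genes, and 21698 probe sets matched RefSeq (GRCm38.p6) by gene identifier. limma 3.58.1 in R 4.3.3 fitted 6 group means on all 18 arrays (12 residual degrees of freedom), with 12 contrasts, two-sided moderated tests and Benjamini-Hochberg adjustment over all genes per contrast; genes with an adjusted p under 0.05 were called. The fit was tested on simulated data with independent arrays, so that test does not bear on the pairing of arrays described below.

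The members, the 18 gene lists and the tests were chosen with earlier results of these data known. Named genes were the members and relatives, the receptor and ISGF3 genes, Ifnb1, Irf3, Irf7, Usp18, up to 4 genes of each other list with the smallest adjusted p in unstimulated knockout minus wild type, 4 neighbours on each side of the cluster, and the 5 genes most like each pattern. Alternatives were other scalings, filters, probe set rules, fits and blocks, and each replicate left out. Deviations from group means were checked for pairing: same-numbered arrays of a genotype correlated in 18 of 18 pairs (0.15 to 0.80), so numbers pair within a genotype, whereas across genotypes r ran from -0.11 to 0.30 and passed 0.1 in 13 of 27 pairs (24 were positive), against 1 of 54 pairs of different number (7 positive). Since not every pair passed 0.1, numbers were not taken to pair across genotypes. Deviations sum to 0 within a group, so pairs of different number are no independent baseline for those of equal number. An effect of the number shared across genotypes is therefore not excluded. The LPS responses reported come from the fit without a block, so the pairing within a genotype is not used in them. With that block, 42.5% rather than 32.2% of all genes were called in either direction for the 6 h knockout response. The share was 15.1% rather than 8.1% for the 6 h wild-type response and 21.8% rather than 10.2% for the difference of these responses. No scan date or other batch was available from the sources used here. The number of arrays limits the precision.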

Additional observations from a re-analysis of the deposited data

Results flagged for a closer look

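The 6 h LPS response differed between genotypes by the test of the difference itself for Ifit1, at -3.47, for Ifit2, at -2.67, and for Ifit3, at -3.94 (log2, knockout minus wild type). The 3 values are negative because the wild-type response was the larger. The value for the relative Ifit1bl2 was 1.47, but all its wild-type and unstimulated knockout values were under 5.70, the level that 95% of values of tissue-restricted genes lay under, so this value depends on the background of the arrays. The unstimulated wild-type values of the 4 members were under 5.70 as well, so the sizes of their differences also depend on that background. Their 6 h knockout values lay near the top of the scale, and whether the scale limits them was not tested. Ifit2 lost its call in 10 of 30 settings. Ifit3b, at -1.21, was not called, and whether it differs from the other members in this respect was not tested.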

How the results depend on the processing

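The count of members called was recomputed under 30 or 31 settings for each of 12 comparisons, 364 values in all, and 361 stayed within 1.5 times the count reported. Unstimulated knockout minus 6 h wild type gave 1 member rather than 2 when only those groups were fitted. Leaving out 1 replicate at a time gave 0 to 3 members for the 6 h knockout response, 0 to 4 for knockout 1 h to 6 h, and 2 to 3 for the difference of the 6 h responses, and it left the other 9 counts as reported. All 4 members were called higher in knockout cells at each LPS time under every setting run. Of 1820 single values, for the members and Ifit1bl2, 1766 kept their direction and side of the threshold, 41 lost the call, 13 gained it and 0 of the called values turned. Ifit2 lost its call in the difference of the 6 h responses in 10 settings (adjusted p over all settings 0.0028 to 0.077), among them every probe set tested on its own row (0.053) and a robust trended prior (0.057). With the replicate number within a genotype as a block, 4 members rather than 3 were called for knockout 1 h to 6 h and 3 for the difference of the 6 h responses. With the number blocked across genotypes, 3 rather than 2 were called for unstimulated knockout minus 6 h wild type, and 924 rather than 487 of all genes for unstimulated knockout minus wild type. Apart from those named, the blocks changed no call of a member; the consensus correlation of the random block was 0.272. The settings that left out knockout replicate 3 or wild-type replicate 1 in all conditions, and the list counts, were added after the data were seen. The filter on dim probe sets kept 10185 genes. Signals near the low end limit the sizes against resting wild-type cells.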
